A study of Mus musculus with 22 samples.

Results

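Ts1Cje mice carry an extra copy of the distal part of mouse chromosome 16, counted from Sod1 onward, and 10 genes that lie on the other side of Sod1 were examined as a copy-number control. These were Ncam2, Jam2, Adamts1, Adamts5, Ltn1, Rwdd2b, Usp16, Cct8, Bach1 and Tiam1, in the order of the chromosome. They were chosen by position and by name: each is present in 3 copies in larger mouse models of Down syndrome and in 2 copies in Ts1Cje. All 10 were measured, among 20239 named genes that were tested and 21225 features in all. Tiam1 lies closest to Sod1 and Ncam2 farthest from it, and 1 tested gene, Gm10789, which overlaps the end of Tiam1, starts between Tiam1 and Sod1.

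Affymetrix mouse gene ST 1.0 arrays, which read each gene with a set of short probes, were used to measure RNA, and the values are log2 signals. The animals were 6 Ts1Cje females and 5 wild-type (WT) female littermates at 8 to 10 weeks of age, from Ts1Cje males crossed repeatedly to C57Bl/6J females. Hippocampus and cortex were taken from each animal, so that 22 arrays came from 11 animals, with 1 array per animal and region. The Ts1Cje group is trisomic for the distal segment, which sits on another chromosome whose tip the line is known to have lost, and the WT group has 2 copies of every gene described here, as Ts1Cje has of the 10 members. Whole dissected tissue was used, so fewer cells of a type and less RNA per cell cannot be told apart. The p-values between genotypes within a region measure the spread between these animals. Those between regions, and for the difference of effects, treat the 22 arrays as independent, except where the animal is named as a block.

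The distal end of mouse chromosome 16 matches much of the long arm of human chromosome 21, and models of Down syndrome differ in where their extra segment starts. Ts65Dn mice have a longer extra segment than Ts1Cje, so genes between the start points of both segments are trisomic in Ts65Dn and disomic in Ts1Cje. This need not hold for every member, since the Ts65Dn start point was not placed against them here. A gene with 2 copies in both genotypes is not subject to a direct dosage effect. Its level can still reflect the rest of the trisomy, the lost tip of the other chromosome, the tissue and the measurement. Other differences between the animals can act too, and none of these was tested.

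Dissection was checked against markers chosen for each region, as the mean of their signals above the median of their array. Hippocampal markers were at 1.53 to 2.07 on the hippocampus arrays and at -0.45 to 0.04 on the cortex arrays. Cortical markers were at 1.15 to 1.34 on the hippocampus arrays and at 2.04 to 2.62 on the cortex arrays. Between genotypes, 0 of 7 hippocampal markers had a log2 fold change above 0 in hippocampus (median -0.14, 0 called), and their level above the array median was 1.53 to 1.97 in Ts1Cje hippocampus against 1.69 to 2.07 in WT hippocampus. Likewise 0 of 6 choroid plexus markers (median -0.22; 2.07 to 2.77 in Ts1Cje against 2.31 to 2.79 in WT) and 0 of 5 pericyte markers (median -0.10; 1.37 to 1.58 in Ts1Cje against 1.52 to 1.58 in WT) were above 0 in hippocampus, with 0 called. In cortex 1 of 7, 2 of 6 and 2 of 5 of these markers were above 0. Low counts in hippocampus were not limited to these lists. There 0 of 6 astrocyte markers (median -0.07), 0 of 3 oligodendrocyte precursor markers (median -0.04) and 1 of 6 microglia markers were above 0. Oligodendrocyte markers went the other way, with 5 of 5 above 0 (median 0.07), and 0 of all these were called. The part of tissue make-up in the values of the members was not tested. WT animal 60 and Ts1Cje animal 64 gave arrays that stood apart from the others of their region. Their median correlation with the other arrays was 0.967 (animal 60) and 0.976 (animal 64) in cortex and 0.991 (animal 60) and 0.985 (animal 64) in hippocampus, against 0.995 to 0.997 for the remaining animals. On the cortex array of animal 60 the members lay at a median of 0.54 below their group's median on the log2 scale, and 9 of 10 were below it. On the cortex array of animal 64 this median was 0.37 below, again with 9 of 10 below and with Bach1 as the exception. The genotype differences of the members are therefore given for all animals and without these 2 animals. Without them 0 of 7 hippocampal, 0 of 6 choroid plexus and 1 of 5 pericyte markers were above 0 in hippocampus. So were 0 of 6 astrocyte, 1 of 3 oligodendrocyte precursor, 2 of 6 microglia and 5 of 5 oligodendrocyte markers. Immediate early genes, which neuronal activity induces, had a log2 fold change above 0 for 12 of 12 in both regions, with a median of 0.39 in cortex and 0.25 in hippocampus and 0 called. With animals 60 and 64 left out it was 12 of 12 in cortex and 10 of 12 in hippocampus. Their mean signal was 8.50 to 9.00 in Ts1Cje cortex against 7.92 to 9.00 in WT cortex, and 7.42 to 7.90 in Ts1Cje hippocampus against 7.18 to 7.78 in WT hippocampus. Their part in the values of the members was not tested.

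No member passed the test between genotypes in either region. In cortex 0 of the 10 members were called at an adjusted p under 0.05 (limma, Benjamini-Hochberg over all 20239 genes), where 0.00494% of all tested genes were called. In hippocampus 0 of 10 were called, where 0.114% of all tested genes were called. Among all tested genes 263 in cortex and 750 in hippocampus had an unadjusted p under 0.05, and none of them was a member. The adjusted p of every member was 1 in both regions. Of 73 tested genes of the triplicated segment after Sod1, 0 were called in cortex and 17 in hippocampus. A missed call in cortex therefore does not tell 2 copies from 3. For no member did the Ts1Cje arrays all lie on one side of the WT arrays, a pattern that 0.306% of all tested genes showed in cortex and 0.637% in hippocampus. With animals 60 and 64 left out, 0 members were called in cortex, where 0.158% of all tested genes were, and 0 in hippocampus, where 0.183% were. Groups that did not overlap were then found for 0 members in cortex (2.04% of all tested genes) and for 1 in hippocampus, Bach1 (2.95% of all tested genes).

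A p that misses the threshold does not show that the groups were equal, so the 95% interval of each log2 fold change was set beside 2 marks. The first was 0.58, the log2 of 1.5, which is the ratio of 3 copies to 2. The interval lay wholly below it for 10 of 10 members in cortex and 10 of 10 in hippocampus. This was also so for 95.6% of all tested genes in cortex and 97.8% in hippocampus, but for 43 of 73 tested genes of the triplicated segment in cortex and 58 of 73 in hippocampus. The second mark was the median log2 fold change of the segment, 0.33 in cortex and 0.29 in hippocampus, which is lower than the log2 of 1.5. In cortex 5 of 10 members had an interval wholly below it (Adamts1, Adamts5, Rwdd2b, Usp16 and Tiam1), against 66.4% of all tested genes. In hippocampus 9 of 10 did, all but Ncam2, against 76.1% of all tested genes. Leaving out animals 60 and 64, it was 10 of 10 in both regions, against 92.3% of all tested genes in cortex and 89.3% in hippocampus. Below the log2 of 1.5 were then 10 of 10 members, against 98.9% of all tested genes in cortex and 98.1% in hippocampus. So were 57 of 73 segment genes in cortex and 63 of 73 in hippocampus. The first mark thus did not separate the members from most segment genes. The shares of the members are near those of all tested genes.

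**Figure D1:**
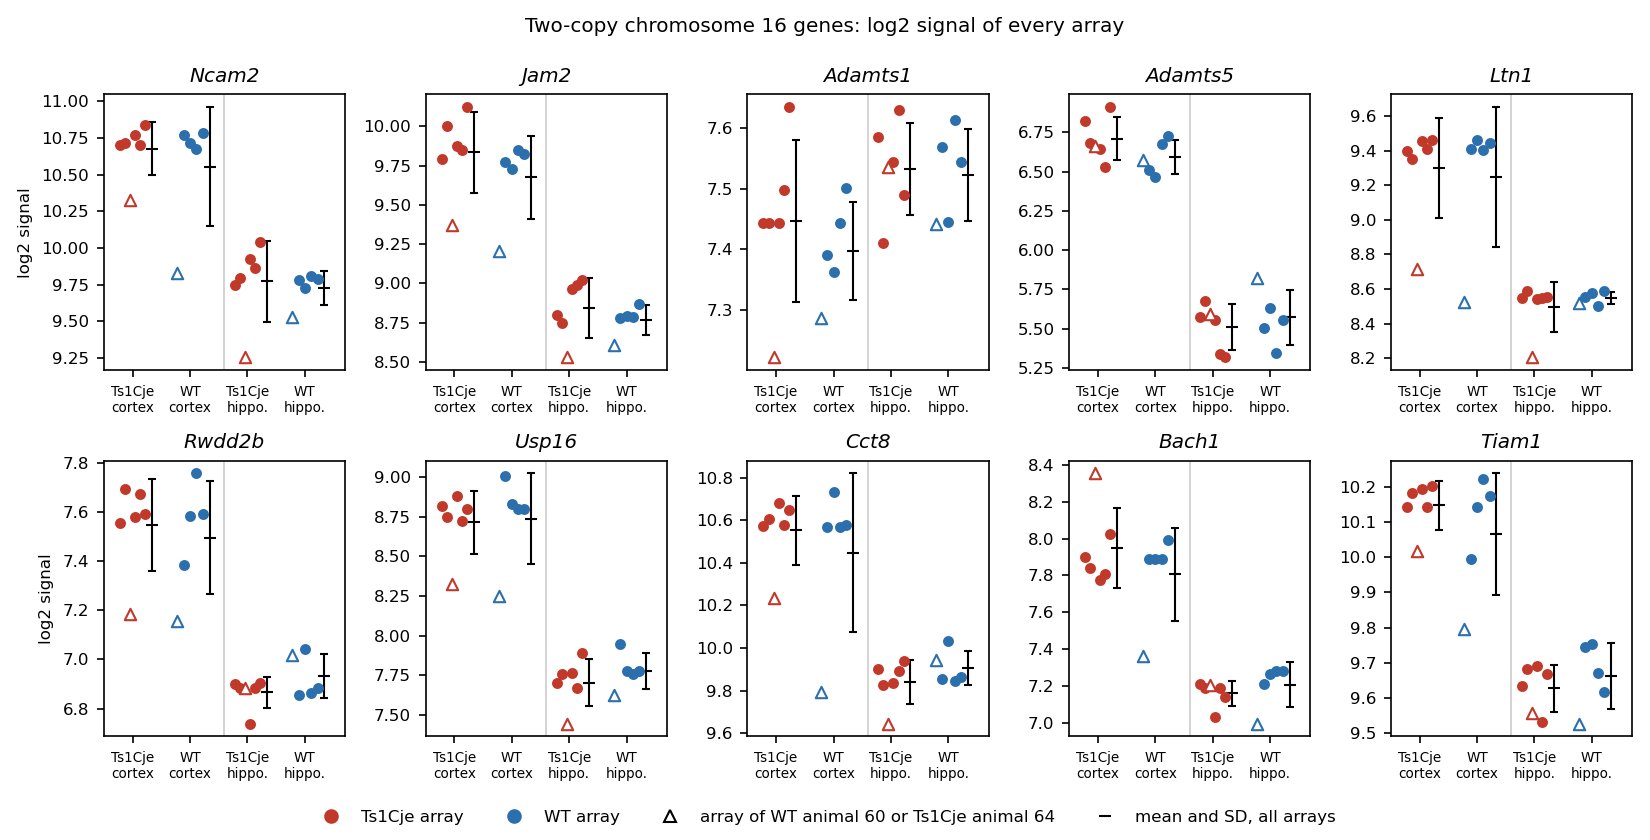
Log2 signal of each of the 10 genes (y axis, a separate scale for each gene) on every array, with Ts1Cje left of WT within cortex and within hippocampus (hippo.). Points are animals, open triangles mark Ts1Cje animal 64 and WT animal 60, and bars are the mean and SD over all arrays of a group. The groups overlap in every panel and region, and in cortex the open triangles are the lowest points of both groups for 8 genes.

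Ncam2 and Jam2 encode cell adhesion proteins of the immunoglobulin superfamily. NCAM2 is a neural cell adhesion molecule best known from olfactory axons and from synapses, and JAM2 (junctional adhesion molecule B) sits at cell junctions, including those of vascular endothelium. Ncam2 in cortex had a lowest signal of 10.33, a median of 10.71 and a highest of 10.84 in the 6 Ts1Cje animals, against 9.83, 10.77, 10.72, 10.67 and 10.78 in the 5 WT animals. The WT value of 9.83 came from animal 60, and the other 4 WT values lay inside the Ts1Cje range. Ncam2 had a cortical log2 fold change of 0.12 ± 0.169 (SE), with a 95% interval of -0.25 to 0.49, the highest upper bound of any member, equal to 1.41-fold. With both outlying animals left out it was 0.01, with an interval of -0.09 to 0.11.

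In hippocampus Ncam2 signals were 9.25 at the lowest, 9.83 at the median and 10.04 at the highest in Ts1Cje animals, against 9.53, 9.78, 9.72, 9.81 and 9.78 in WT animals. The Ts1Cje range enclosed every WT value, since animal 64 was below all of them and 3 Ts1Cje animals were above. Its hippocampal log2 fold change was 0.05 ± 0.121, with an interval of -0.22 to 0.31, and without animals 60 and 64 it was 0.10, with an interval of -0.03 to 0.23.

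Jam2 had the highest log2 fold change of the members in both regions, though neither passed the test. Its cortical signals were 9.37, 9.86 and 10.12 (lowest, median and highest) in Ts1Cje animals, against 9.21, 9.77, 9.73, 9.85 and 9.82 in WT animals. Only the WT value of animal 60 was below the Ts1Cje range, and the rest fell within it. This gave a log2 fold change of 0.16 ± 0.148, with an interval of -0.16 to 0.48. With animals 60 and 64 left out it was 0.14 ± 0.0674, with an interval of -0.01 to 0.29 and an adjusted p of 0.835 (limma). In hippocampus Jam2 was at 8.53, 8.88 and 9.02 in Ts1Cje animals, against 8.61, 8.78, 8.79, 8.79 and 8.87 in WT animals, and the log2 fold change was 0.08 ± 0.089 with an interval of -0.12 to 0.27 (0.10 without the 2 animals).

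Since Jam2 is expressed in vessels, endothelial markers are given beside it. Of 8 endothelial marker genes 6 had a log2 fold change above 0 in cortex and 2 in hippocampus, and none was called. Their mean signal was 9.01 to 9.31 in Ts1Cje cortex against 9.03 to 9.28 in WT cortex, and 8.41 to 8.57 in Ts1Cje hippocampus against 8.39 to 8.56 in WT hippocampus. The part of endothelial content in the Jam2 values was not tested. Of 5 partners of adhesion proteins in the same family or complex, 0 were called in either region. The member of this list with the lowest p was F11r, which encodes junctional adhesion molecule A, in cortex (log2 fold change 0.13) and Pard3, which encodes a cell polarity scaffold, in hippocampus (-0.09).

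Adamts1 and Adamts5 encode secreted metalloproteases that cleave hyalectans such as versican and aggrecan in the extracellular matrix. Adamts1 varied little between animals. In cortex it had signals of 7.22, 7.44 and 7.63 (lowest, median and highest) in Ts1Cje animals, against 7.29, 7.39, 7.36, 7.44 and 7.50 in WT animals. The WT values all lay inside the Ts1Cje range, whose lowest value came from animal 64. In 4 of the 11 cortex arrays the deposited value was identical, at 7.4427, so ties limit how finely these arrays can be ordered. The cortical log2 fold change was 0.05 ± 0.0761, with an interval of -0.12 to 0.22 (0.07 without animals 60 and 64).

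Adamts1 in hippocampus was at 7.41, 7.54 and 7.63 in Ts1Cje animals, against 7.44, 7.57, 7.45, 7.61 and 7.54 in WT animals. Its log2 fold change there was 0.01 ± 0.0538, with an interval of -0.11 to 0.13, the smallest in size of all members in that region (-0.01 without animals 60 and 64).

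For Adamts5 the log2 fold change was above 0 in cortex and below 0 in hippocampus, and neither passed the test. Cortical signals were 6.53, 6.67 and 6.91 (lowest, median and highest) in Ts1Cje animals, against 6.57, 6.51, 6.47, 6.68 and 6.73 in WT animals. The ranges overlapped, with 2 WT animals below every Ts1Cje animal. The cortical log2 fold change was 0.12 ± 0.0818, with an interval of -0.06 to 0.30 (0.12 without animals 60 and 64), and it had the lowest unadjusted p of the members in cortex (0.179, limma). In hippocampus signals were 5.32, 5.57 and 5.68 in Ts1Cje animals, against 5.82, 5.50, 5.63, 5.35 and 5.56 in WT animals, and the log2 fold change was -0.06 ± 0.0915 with an interval of -0.26 to 0.14 (-0.02 without animals 60 and 64). The difference of the 2 effects, hippocampus minus cortex, was -0.18, with an interval of -0.44 to 0.08 and an adjusted p of 1 (limma).

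Of 8 other hyalectan proteases, inhibitors and substrates, 4 had a log2 fold change above 0 in cortex and 3 in hippocampus, and 0 were called. Timp3, a tissue inhibitor of metalloproteases, had the lowest p of this list in both regions, with log2 fold changes of 0.11 in cortex and -0.07 in hippocampus.

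Ltn1 and Cct8 act in protein quality control. Listerin, the product of Ltn1, is the ubiquitin ligase that marks unfinished peptides on stalled ribosomes, and CCT8 is the theta subunit of the chaperonin that folds actin and tubulin. Ltn1 in cortex was at 8.72, 9.40 and 9.46 (lowest, median and highest) in Ts1Cje animals, against 8.53, 9.41, 9.46, 9.40 and 9.45 in WT animals. The low value of each group came from animal 64 or animal 60, and the rest lay close together. Its log2 fold change of 0.05 carried the largest error of any member, ± 0.191, with an interval of -0.37 to 0.47. Without the 2 animals it was -0.01 ± 0.0383, the smallest error of any member in cortex, with an interval of -0.10 to 0.07.

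Ltn1 in hippocampus was at 8.20, 8.55 and 8.59 in Ts1Cje animals, against 8.52, 8.55, 8.58, 8.50 and 8.59 in WT animals. The Ts1Cje value of 8.20 came from animal 64, and the log2 fold change was -0.05 ± 0.0683, with an interval of -0.20 to 0.10. Leaving out that animal and animal 60, it was 0.00 ± 0.0321, with an interval of -0.07 to 0.07, the narrowest of the members.

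Cct8 had cortical signals of 10.23, 10.59 and 10.68 in Ts1Cje animals, against 9.79, 10.57, 10.74, 10.57 and 10.58 in WT animals, and 3 WT values lay inside the Ts1Cje range, with animal 60 below it and animal 65 above. A log2 fold change of 0.11 ± 0.156 resulted (interval -0.24 to 0.45), and without animals 60 and 64 it was 0.01 (interval -0.10 to 0.11). In hippocampus Cct8 was at 9.64, 9.86 and 9.94 in Ts1Cje animals, against 9.94, 9.85, 10.03, 9.85 and 9.87 in WT animals, with a log2 fold change of -0.07 ± 0.0613 (interval -0.20 to 0.07), or -0.02 without animals 60 and 64.

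The other subunits of the chaperonin and other quality control genes on the list numbered 9, of which 0 were called. A log2 fold change above 0 was found for 5 of them in cortex and 4 in hippocampus. Tcp1, the alpha subunit of the same chaperonin, had the lowest p in cortex (log2 fold change 0.14) and Cct3, the gamma subunit, in hippocampus (-0.11).

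Usp16 encodes a deubiquitinase that removes ubiquitin from histone H2A, and it is the member most often discussed for its extra copy in Ts65Dn, in the context of stem cell renewal. In cortex Usp16 was the 1 member with a log2 fold change below 0. Its signals were 8.33, 8.77 and 8.88 (lowest, median and highest) in Ts1Cje animals, against 8.25, 9.00, 8.83, 8.80 and 8.80 in WT animals. The WT group held both the lowest value, from animal 60, and the highest, from animal 62. The log2 fold change was -0.02 ± 0.138, with an interval of -0.32 to 0.28, and without animals 60 and 64 it was -0.07, with an interval of -0.19 to 0.05.

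In hippocampus Usp16 was at 7.45, 7.73 and 7.89 in Ts1Cje animals, against 7.63, 7.95, 7.78, 7.76 and 7.77 in WT animals. From these values the log2 fold change was -0.07 ± 0.0792, with an interval of -0.24 to 0.10 (-0.06 without animals 60 and 64). Usp16 and Cct8 overlap at their ends in the RefSeq annotation, so a probe there could read either gene, and where the probes lie is not given in the sources used here. Of 5 other ubiquitin proteases 0 were called, and Usp22, which acts on histones in the SAGA complex, had the lowest p of them in both regions, with a log2 fold change of 0.07 in each.

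Bach1 encodes a heme-binding transcription factor that represses Hmox1 and other oxidative stress genes in competition with NRF2. In cortex Bach1 was at 7.77, 7.87 and 8.36 (lowest, median and highest) in Ts1Cje animals, against 7.36, 7.89, 7.89, 7.89 and 7.99 in WT animals. Here animals 60 and 64 stood at opposite ends, the WT animal lowest and the Ts1Cje animal highest. With all animals the log2 fold change was 0.14 ± 0.133 (interval -0.15 to 0.44), and without these 2 animals it was -0.05 ± 0.0548 (interval -0.17 to 0.07), so they decide its sign in cortex.

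In hippocampus Bach1 signals were 7.03, 7.19 and 7.21 in Ts1Cje animals, against 6.99, 7.21, 7.27, 7.28 and 7.28 in WT animals. The WT value of 6.99 came from animal 60 and lay below every Ts1Cje animal, while the other 4 WT values were above all of them. Over all animals the log2 fold change was -0.05 ± 0.062, with an interval of -0.18 to 0.09. With animals 60 and 64 left out, all 5 Ts1Cje values lay below all 4 WT values, the closest pair being 7.2083 against 7.2099, and 1.45% of all tested genes also lay below. The log2 fold change was then -0.11 ± 0.0438 (interval -0.21 to -0.01, unadjusted p of 0.0334 and adjusted p of 0.567, limma), so it did not pass the test. Bach1 was the only member whose interval left out 0 in any of these 4 fits.

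The list of BACH1 targets and partners held 9 measured genes, and 0 were called in either region. A log2 fold change above 0 was found for 6 of them in cortex and 2 in hippocampus. Nfe2l2, which encodes NRF2, had the lowest p in cortex (log2 fold change 0.19), and Slc7a11, a cystine transporter, in hippocampus (-0.11).

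Tiam1 encodes a guanine nucleotide exchange factor that activates the small GTPase Rac1 and acts in dendrite and spine growth. In cortex it had signals of 10.02, 10.16 and 10.20 (lowest, median and highest) in Ts1Cje animals, against 9.79, 10.00, 10.14, 10.22 and 10.17 in WT animals. In hippocampus it was at 9.53, 9.65 and 9.69 in Ts1Cje animals, against 9.53, 9.74, 9.75, 9.67 and 9.62 in WT animals. The WT values reached both below and above the Ts1Cje range in each region. Its log2 fold change was 0.08 ± 0.0821 (interval -0.10 to 0.26) in cortex and -0.04 ± 0.0555 (interval -0.16 to 0.09) in hippocampus. With animals 60 and 64 left out these were 0.04 in cortex and -0.06 in hippocampus. Of 7 other genes of Rac signalling 0 were called, with 4 above 0 in cortex and 2 in hippocampus. Those with the lowest p were the exchange factor Vav2 in cortex (log2 fold change 0.06) and the GTPase Rac3 in hippocampus (-0.08).

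Rwdd2b encodes a protein with an RWD domain whose role is little known. Its cortical signals were 7.18, 7.59 and 7.69 in Ts1Cje animals, against 7.16, 7.38, 7.58, 7.76 and 7.59 in WT animals, and its log2 fold change was 0.05 ± 0.12 (interval -0.21 to 0.32), or 0.04 without animals 60 and 64. In hippocampus it was at 6.74, 6.88 and 6.91 in Ts1Cje animals, against 7.02, 6.86, 7.04, 6.86 and 6.88 in WT animals. There 2 WT animals lay above every Ts1Cje animal, and the log2 fold change was -0.07 ± 0.0535 (interval -0.18 to 0.05; -0.05 without animals 60 and 64), with the lowest unadjusted p of the members in that region (0.238, limma).

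**Figure D2:**
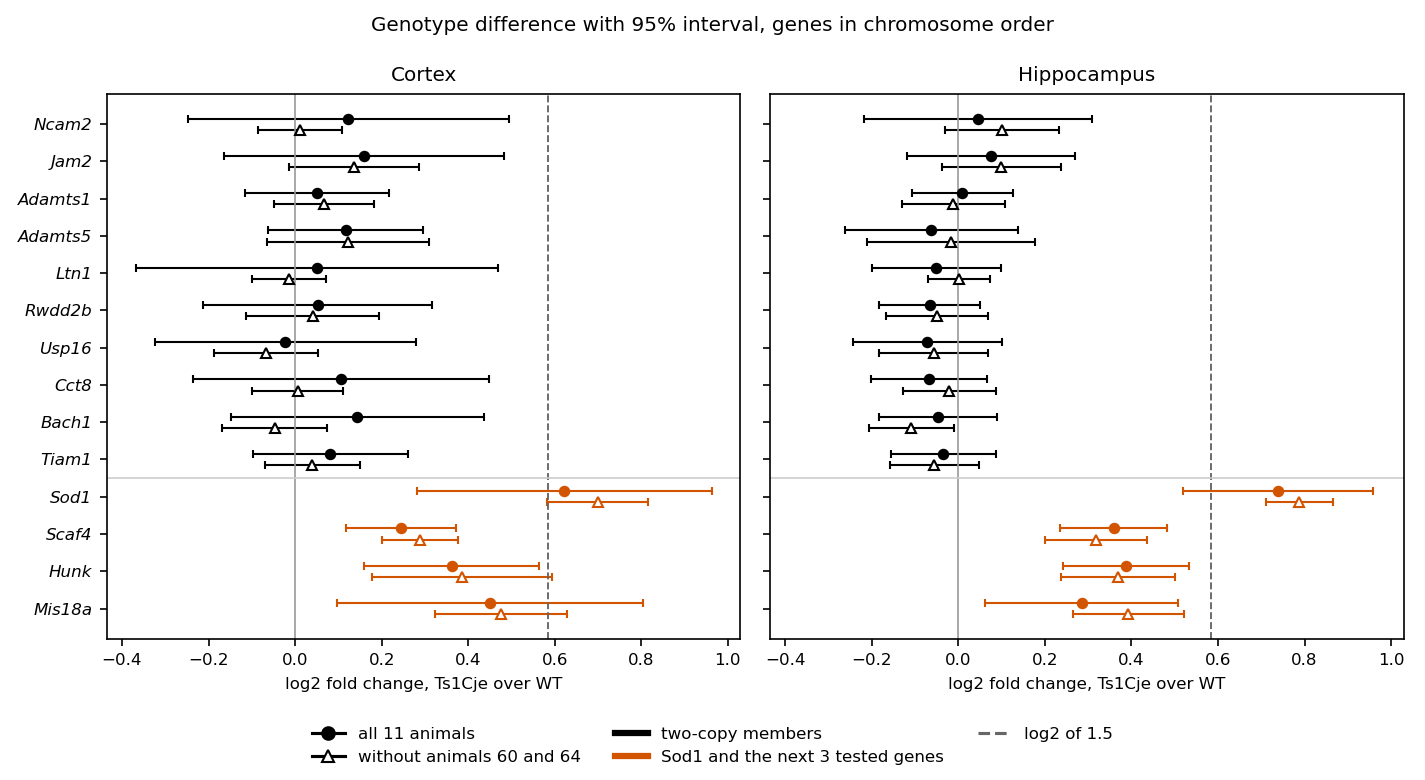
Log2 fold change of Ts1Cje over WT (x axis) with its 95% interval for each gene (y axis, in chromosome order), in cortex and in hippocampus. Filled circles are all 11 animals, open triangles leave out animals 60 and 64, black is for the 10 genes and orange for Sod1 and the next 3 tested genes, and the dashed line is the log2 of 1.5. Every black interval ends left of the dashed line. In cortex with all 11 animals the orange intervals of Scaf4 (upper bound 0.37) and Hunk (0.56) do so too.

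The step in copy number falls between Tiam1 and Sod1, and the genes on both sides of it were compared within each animal. Sod1 encodes cytosolic superoxide dismutase and marks the breakpoint, where its extra copy is known to have been disrupted by a targeting cassette, and Scaf4, the next tested gene, encodes a protein that binds RNA polymerase II. Sod1 was at 12.04, 12.13 and 12.57 (lowest, median and highest) in Ts1Cje cortex, against 12.18, 11.28, 11.49, 11.50 and 11.40 in WT cortex, where the value of 12.18 was from animal 60. In hippocampus it was at 11.76, 11.83 and 12.12 in Ts1Cje animals, against 11.52, 10.97, 11.06, 11.03 and 11.04 in WT animals, and the groups did not overlap.

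The log2 fold change of Sod1 was 0.62 (interval 0.28 to 0.96) in cortex and 0.74 (interval 0.52 to 0.96) in hippocampus. In the test over all genes Sod1 was called in hippocampus (adjusted p of 0.0214, limma) but not in cortex (unadjusted p of 0.00191, limma). Scaf4 was not called in cortex either (adjusted p of 0.972, limma). Without animals 60 and 64 it was 0.70 in cortex and 0.79 in hippocampus. With all animals both values lay above the log2 of 1.5, which both intervals included. The highest segment genes reached 0.59 in cortex and 0.48 in hippocampus. The log2 fold change of Sod1 exceeded that of Tiam1 by 0.77 in hippocampus and 0.54 in cortex. For this step the difference between Sod1 and Tiam1 signals within an animal was compared between genotypes with a two-sided exact permutation test over the 462 splits of the animals. The exact p was 0.00216 in hippocampus, the smallest it can give (0.00433 adjusted over 4 such tests), and in all 6 Ts1Cje animals the difference was above that of every WT animal. In cortex the exact p was 0.0346 (adjusted 0.0462), and 1 of 6 Ts1Cje animals was above every WT animal. The exact p in cortex was 0.0762 when any 1 of WT animals 62, 65, 95 or 98 was left out, which ends the call. For Scaf4 the step was 0.39 in hippocampus, with an exact p of 0.00216 (adjusted 0.00433) and 6 of 6 Ts1Cje animals above every WT animal. The Scaf4 step in cortex was 0.16, with an exact p of 0.113 and 0 of 6 Ts1Cje animals above every WT animal. Without animals 60 and 64 all 4 steps, 0.84 and 0.37 in hippocampus and 0.66 and 0.25 in cortex (Sod1 and Scaf4 in each), had the smallest exact p that 126 splits can give, 0.00794. The step comparison was added after the data had been seen. The part of copy number in the Sod1 step was not tested.

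Start regions are shown for 2 members, Bach1 and Cct8, and for Sod1, so that genes with 2 copies can be read beside the gene at the breakpoint. Each window of 300 bases runs from 250 bases before to 50 after an annotated start, is taken from RefSeq on GRCm38.p6 and reads 5′ to 3′ on the gene's own strand. Capitals mark GGGCGG or CCGCCC, the GC box on either strand, with overlapping matches counted. The window of Bach1 is chr16:87698704-87699003 on the plus strand, that of Cct8 chr16:87495820-87496119 on the minus strand and that of Sod1 chr16:90220512-90220811 on the plus strand.
Bach1: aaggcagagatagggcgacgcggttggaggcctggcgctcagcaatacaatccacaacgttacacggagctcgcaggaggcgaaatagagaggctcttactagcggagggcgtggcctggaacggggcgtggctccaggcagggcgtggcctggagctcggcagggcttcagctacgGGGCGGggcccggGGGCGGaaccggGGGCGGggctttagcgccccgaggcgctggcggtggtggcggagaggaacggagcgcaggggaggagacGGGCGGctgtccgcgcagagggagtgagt
Cct8: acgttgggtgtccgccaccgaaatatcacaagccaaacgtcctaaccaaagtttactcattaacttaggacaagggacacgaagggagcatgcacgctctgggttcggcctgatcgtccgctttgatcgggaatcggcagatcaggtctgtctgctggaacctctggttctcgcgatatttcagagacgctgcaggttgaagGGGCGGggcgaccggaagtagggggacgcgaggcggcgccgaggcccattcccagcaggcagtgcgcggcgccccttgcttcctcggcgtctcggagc
Sod1: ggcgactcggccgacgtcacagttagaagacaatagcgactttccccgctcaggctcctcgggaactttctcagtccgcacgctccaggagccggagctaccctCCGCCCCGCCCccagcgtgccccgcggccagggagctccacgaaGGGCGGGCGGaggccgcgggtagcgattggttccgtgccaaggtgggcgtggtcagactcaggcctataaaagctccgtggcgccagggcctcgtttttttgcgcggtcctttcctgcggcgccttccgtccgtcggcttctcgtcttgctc
The Bach1 window held 31 CpG dinucleotides, 69.7% G and C and 4 GC boxes, and the Cct8 window 28 CpG, 60.3% G and C and 1 GC box. The Sod1 window held 34 CpG, 66.7% G and C and 4 GC boxes. Of all 32851 promoter windows 35.7% held the GC box, and the median window had 7 CpG. Windows were matched for 7 of the 10 members. That of Ncam2 held 41 CpG and 2 GC boxes, and that of Adamts1 18 CpG and 3 GC boxes. The windows of Usp16 (17 CpG) and Ltn1 (13 CpG) held 0 GC boxes. The 2 windows matched for Tiam1 held 7 and 9 CpG and 0 GC boxes, and both lie at starts inside its annotated span, not at its outer end. Jam2, Adamts5 and Rwdd2b had no window in the table.

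**Figure D3:**
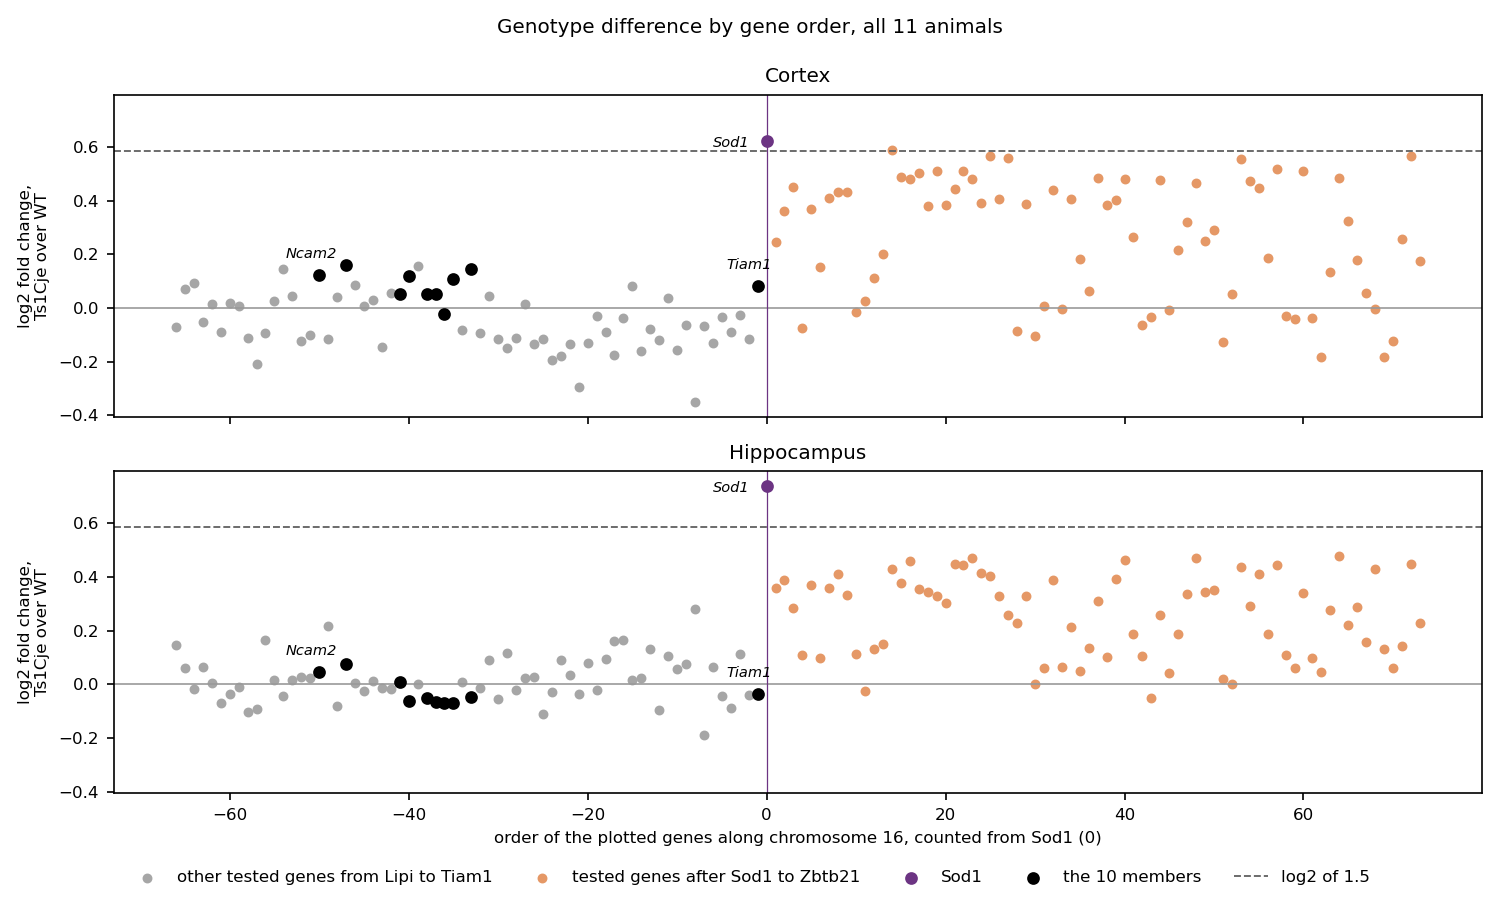
Log2 fold change of Ts1Cje over WT (y axis) for the tested genes from Lipi to Zbtb21 in chromosome order (x axis, the place of each plotted gene counted from Sod1), in cortex and in hippocampus, all 11 animals. Black points are the 10 genes, grey points the others up to Tiam1, the purple point Sod1 and orange points the genes after it. Gm10789 is not plotted. The black points lie between -0.07 and 0.16, and the orange points have a median of 0.33 in cortex and 0.29 in hippocampus.

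The members were then set against the whole stretch from Lipi to Tiam1, which holds 66 tested genes. The median log2 fold change of the members was 0.09 in cortex, with 9 of 10 above 0, and -0.05 in hippocampus, with 3 of 10 above 0. Over all tested genes it was 0.00 in cortex and -0.01 in hippocampus. The 56 genes of the stretch that are not members had a median of -0.09 in cortex (18 above 0) and 0.01 in hippocampus (33 above 0), with 0 called in either region. In the triplicated segment after Sod1, 73 genes had a median of 0.33 in cortex (57 above 0) and 0.29 in hippocampus (71 above 0), with 0 called in cortex and 17 in hippocampus. Without animals 60 and 64 the members' median was 0.03 in cortex and -0.02 in hippocampus. That of the 56 other genes of the stretch was -0.03 in cortex and 0.02 in hippocampus. The median of the segment was then 0.31 in cortex (27 called) and 0.32 in hippocampus (26 called).

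The contrast was also taken over genes whose mean signal exceeded that of the median feature, which holds for 8 members. Of the 66 genes of the stretch 24 were brighter, and their log2 fold changes ran from -0.16 to 0.16 in cortex and from -0.10 to 0.09 in hippocampus. These 24 had a median of 0.05 in cortex (20 above 0) and -0.02 in hippocampus (11 above 0). The 42 dimmer genes of the stretch had a median of -0.10 in cortex (7 above 0) and 0.02 in hippocampus (25 above 0). In cortex, with all animals, the sign in the stretch thus went with signal level. The split is given for all animals only. The cortex arrays of animals 60 and 64 had a narrower spread of signals (SD over features 1.86 and 1.95) than the other cortex arrays (2.17 to 2.22). Their part in this pattern was not tested. In the segment 44 genes were brighter. Their log2 fold changes began at 0.11 in cortex and 0.13 in hippocampus, with 44 of 44 above 0 in each region. Of the 29 dimmer segment genes 13 were above 0 in cortex and 27 in hippocampus.

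No gene on a list of well-known neighbours from the same stretch passed the test. It held App, Gabpa, Mrpl39, Atp5j, N6amt1, Grik1, Usp25, Nrip1 and Cxadr, and 0 of these 9 were called. App, the amyloid precursor gene and the one most studied for its extra copy in Down syndrome, had a log2 fold change of 0.03 (interval -0.11 to 0.17) in cortex and 0.01 (interval -0.07 to 0.10) in hippocampus. N6amt1, a methyltransferase gene, had the largest cortical value, 0.16 ± 0.182, against 0.00 ± 0.107 in hippocampus.

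The genotype effects of the members did not differ detectably between the regions. The difference of the effects, hippocampus minus cortex, was below 0 for 10 of 10 members, from -0.19 for Bach1 to -0.04 for Adamts1. None passed the test (0 of 10, where 0% of all 20239 tested genes were called and 260 had an unadjusted p under 0.05, limma). In the fit with the animal as a block, 912 genes had an unadjusted p under 0.05 and again 0 were called. Without animals 60 and 64 the differences ran from -0.14 for Adamts5 to 0.09 for Ncam2, and 3 were above 0, so the sign was no longer common to all members. The median difference over all tested genes was -0.01 with all animals and -0.01 without these 2.

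Between the regions several members differed. After each array was centred on its median, 5 of 10 members were called between hippocampus and cortex, where 41.4% of all tested genes were called, so the share is near that of the genome. Region, RNA extraction kit and any separate normalization of the regions cannot be told apart in these data. Adamts1 was higher in hippocampus, at 0.46 to 0.69 above the array median there against -0.36 to -0.02 in cortex, in 11 of 11 animals. Its difference was 0.74 ± 0.0458 with an adjusted p of 2.24e-11 (limma), or 1.66-fold. On the values as deposited it was 0.11, or 1.08-fold, and higher in hippocampus in 9 of 11 animals (adjusted p of 0.0308, limma). Centring removes the difference in array median between the regions, and the median difference over all genes was -0.63 on deposited values. Which scaling is nearer the RNA amounts was not tested. Adamts5, its relative, went the other way, at -1.63 to -1.15 in hippocampus against -1.11 to -0.74 in cortex, lower in 11 of 11 animals, by -0.48 ± 0.0591 (adjusted p of 9.55e-07, limma). After centring the regional ranges did not overlap for either protease.

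The other 3 called members had overlapping ranges. Usp16 was lower in hippocampus in 10 of 11 animals, by -0.35 ± 0.0856 (adjusted p of 0.002, limma), and Jam2 in 10 of 11, by -0.32 ± 0.0912 (adjusted p of 0.00712). Tiam1 was higher in hippocampus in 11 of 11 animals, by 0.17 ± 0.0515 (adjusted p of 0.0122) after centring, but as deposited it was lower in 11 of 11 animals, by -0.46, and with quantile normalization it was higher by 0.20. The directions of Jam2, Adamts1, Adamts5 and Usp16 were the same under all 3 scalings. Ncam2 (-0.24), Ltn1 (-0.12), Bach1 (-0.07), Rwdd2b (0.01) and Cct8 (0.00) were not called. With the animal as a replicate block Ncam2 was called too, at -0.24 ± 0.0792 (adjusted p of 0.0153, limma). Leaving out animals 60 and 64 raised the count to 8 of 10, where 65.5% of all tested genes were called, and it then included Ncam2 (-0.29), Ltn1 (-0.24) and Cct8 (-0.10), all lower in hippocampus.

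**Figure D4:**
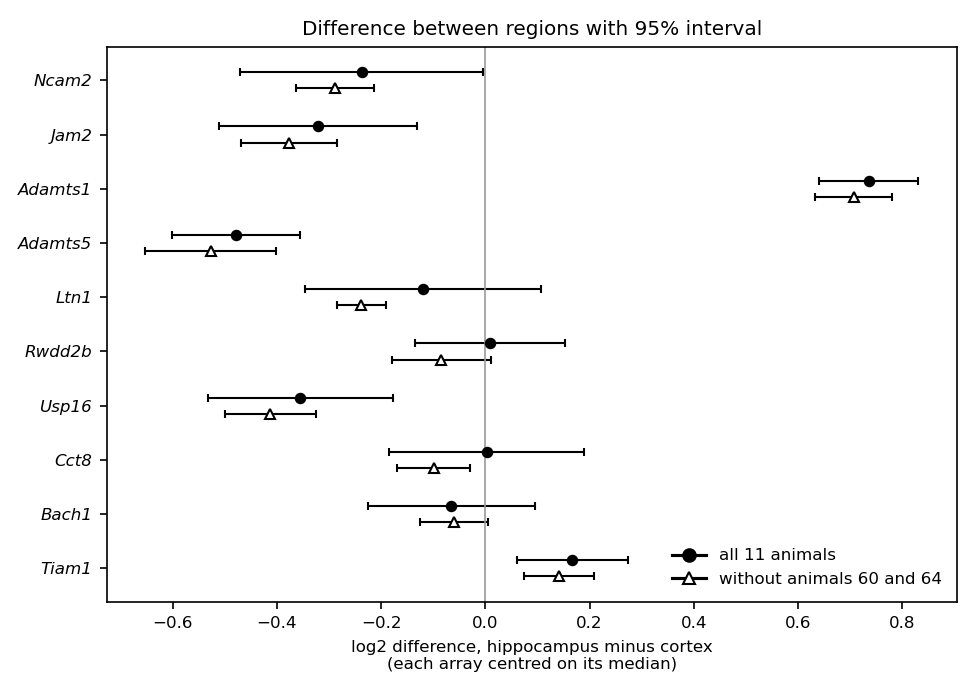
Log2 difference, hippocampus minus cortex, of each gene (y axis) with its 95% interval, after each array was centred on its median. Filled circles are all 11 animals and open triangles leave out animals 60 and 64. Adamts1 stands at 0.74 and Tiam1 at 0.17 right of 0 (-0.46 for Tiam1 on values as deposited), and Adamts5 at -0.48 is farthest left.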

How the data were processed

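Per the submitters' processing notes the authors processed the arrays with RMA, which corrects background, normalizes arrays and summarizes probes, and the deposited values are log2 signals, 1 per array and Entrez gene number. The sources used here do not give the RMA version, the probe definition or whether hippocampus and cortex were normalized in 1 run. Of 21225 features 20239 carried a gene name and were tested, 986 carried none, and dim genes were kept. Names and gene order came from RefSeq GRCm38.p6. Genotype was fitted within each region, and the regions and the interaction in 4 groups on 22 arrays, with limma 3.58.1 (lmFit, eBayes) in R 4.3.3, two-sided, adjusted over all 20239 genes and called at an adjusted p under 0.05. Arrays were centred on their medians for the comparison of regions, since medians were 6.91 to 6.95 in hippocampus and 7.53 to 7.62 in cortex. The number of arrays limits the precision.

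The members and all gene lists were chosen with earlier results of these data known. Beside the members, the rule for named genes took Sod1, the first gene after it and, in each list, the gene with the lowest p in each region. Hunk and Mis18a appear only in a plot or its caption, and App and N6amt1 were picked from their list after their values were seen. The labels give animal numbers that pair the regions, and arrays of an animal correlated at a median r of 0.265 (0.0523 to 0.761) after group means were removed. The 2 arrays titled WT 60 are described as animal 61, and the title was used. Alternatives were a trended robust prior, array weights, quantile normalization, centred arrays, dim genes left out, a single fit, the animal as a replicate block, low against high animal numbers as a covariate, a threshold of 0.1, and leaving out animals.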

Additional observations from a re-analysis of the deposited data

Results flagged for a closer look

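Within a group, the lowest or highest animal was set against the range of its group by Dixon's ratio, which has a critical value of 0.710 for 5 animals and 0.625 for 6. Of 40 groups of member values 15 exceeded it, and animal 60 or 64 was the outlying animal in 14 of the 15. For independent groups chance would give about 1 in 20, but these groups were read on the same arrays and are not independent. The ratio was not taken over all tested genes, so the count says nothing particular to the members. In Ts1Cje cortex animal 64 was outlying for Ncam2 (ratio 0.735), Rwdd2b (0.725), Usp16 (0.711), Cct8 (0.761), Ltn1 (0.852) and Tiam1 (0.682), and in Ts1Cje hippocampus for Ltn1 (0.880). In WT cortex animal 60 was outlying for Ncam2 (0.886), Jam2 (0.806), Usp16 (0.731), Cct8 (0.822), Bach1 (0.834) and Ltn1 (0.937), and in WT hippocampus for Bach1 (0.750). The remaining outlying value was Rwdd2b in the hippocampus of Ts1Cje animal 87 (0.861). All of these were the low end of their group. Their effect on each gene is given by the values without these 2 animals, and their cause was not tested.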

How the results depend on the processing

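Across 20 alternatives, 0 members were called between genotypes in either region, and the lowest adjusted p reached was 0.621 in cortex and 0.522 in hippocampus. Of 199 recomputed member values per region, 11 changed sign in cortex and 10 in hippocampus. With array weights the cortical log2 fold changes of Bach1 (-0.0434) and Ltn1 (-0.00625) turned negative. Without animals 60 and 64 Bach1 (-0.0475) and Ltn1 (-0.0143) in cortex and Adamts1 (-0.0114) in hippocampus did so, and hippocampal Ltn1 became 0.000946. Leaving out 1 animal at a time gave cortical ranges of -0.0582 to 0.178 for Cct8, -0.0588 to 0.193 for Ncam2, -0.0324 to 0.125 for Rwdd2b, -0.131 to 0.166 for Ltn1 and -0.144 to 0.0554 for Usp16. In hippocampus the ranges were -0.0108 to 0.0338 for Adamts1, -0.00911 to 0.149 for Ncam2, -0.119 to 0.000151 for Adamts5 and -0.0689 to 0.00784 for Ltn1.

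Under a random replicate block for the animal, 0 members were called in cortex, 0 in hippocampus and 0 for the difference of effects, and 6 between the regions, Ncam2 among them, so the pairing moved no count of called members by over 1.5 times. Over all genes this block took the cortical calls to 23, the hippocampal calls to 18 and the regional calls to 10935. Between regions 10 members were called on the values as deposited, where the median of all genes shifted by -0.63, and 8 without animals 60 and 64. The cortical step between Tiam1 and Sod1 ranged from 0.44 to 0.76 with 1 animal left out, and its exact p was 0.0762 without any one of the WT animals 62, 65, 95 or 98. The step to Scaf4 in cortex was 0.25 without both animals, ranged from 0.10 to 0.25 with 1 left out, and had an exact p of 0.00476 without animal 60.

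Over all genes, cortical calls numbered 1, but 3 with a trended robust prior, with dim genes left out or at a threshold of 0.1, 12 with quantile normalization, 23 in a single fit, 32 without animals 60 and 64, 50 with array weights and 1 to 7 with 1 animal left out. Hippocampal calls numbered 23, but 37 without animals 60 and 64, 54 with array weights and 1 to 35 with 1 animal left out, falling to 8 or fewer without any animal but 64. In the regional comparison 8379 genes were called, against 13253 without these animals and 19285 on deposited values. With 6 and 5 animals small differences can be missed, and the 95% intervals are not detection limits of the adjusted test. Sod1 in cortex, at 0.62 with an interval of 0.28 to 0.96, was not called.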
